A study of Mus musculus with 6 samples.

Results

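The genes of DNA replication and mitosis were followed through lumbar dorsal root ganglia of mouse embryos. They were taken as a list of 50 genes with a textbook role in S phase or mitosis, and not by a threshold on their values. The expression table holds 24264 genes. All 50 genes were found in it, and all 50 were among the 13118 genes tested, having at least 1 RPKM (reads per kilobase of transcript, scaled to mapped reads) in at least 3 libraries. Library values are given in the order 1 to 3 within each group. By role the genes comprise 19 replication genes, 25 mitotic genes and 6 regulators of the passage from G1 into S phase.

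The ganglia were dissected at E12.5 from embryos of a mixed C57/Bl6 x 129/SvEv background, and polyadenylated RNA was sequenced from 3 control and 3 miR-CKO samples. In the miR-CKO samples both copies of the floxed miR-183-96-182 cluster were exposed to Wnt1-Cre, a recombinase driven in the neural crest and dorsal neural tube. Controls 1 and 3 were titled Wnt-Cre and control 2 was titled WT, so the control group mixes embryos with and without the recombinase. Ganglionic neurons and glia derive from the neural crest, whereas muscle, vessels and blood do not and keep the cluster. The sources used here do not say whether a sample held the ganglia of 1 embryo or of several, so p-values measure only the spread between these samples.

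Before a cell divides, the Mcm2 to Mcm7 ring is loaded on DNA by Cdc6 and Cdt1, is switched on with Cdc45 and the GINS proteins, and unwinds DNA for the polymerases. Cyclins and their kinases set the order of these steps, and a later set of kinases, motors and centromere proteins builds the spindle and separates the chromosomes. In the embryonic ganglion, dividing progenitors of neurons and glia use these genes, while neurons leave the cycle as they differentiate. In bulk tissue, fewer dividing cells and less of these RNAs per dividing cell cannot be told apart.

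Depth, estimated from the values, lay between 20.3 and 24.4 M (mega) reads, and the deleted microRNA genes were listed at 0 in all 6 libraries, controls included, so they do not check the labels in poly(A) RNA. Ganglion neurons were present in every library, with Tubb3, a neuronal tubulin, at 654 to 915 RPKM and Stmn2, a growth cone protein, at 554 to 895 RPKM. The library miR-CKO 1 differed from the other 5 in sex-linked genes. Its Xist level was 96 RPKM and its Eif2s3y level 0 RPKM, against at most 0.089 and at least 17.2 RPKM elsewhere. Whole reads could be recovered for 49 of the 50 genes, with 215 to 11372 reads per gene and library and a median of 1314. The median coefficient of variation between controls was 21%, against 2.85% from counting alone, and the spread exceeded counting error in 49 of 49 genes.

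The regulatory sequence of these genes is shown first, because replication and mitotic genes are known to be switched on by different promoter elements. E2F proteins bind TTTNNCGC-like elements of replication genes. The DREAM and MuvB complexes bind the CHR element, written TTTGAA or TTCGAA, of mitotic genes, often beside CCAAT boxes of NF-Y. RefSeq promoter windows on GRCm38.p6 (mm10), reaching from 250 bases before to 50 after a gene's start, were given for 37 of the 50 genes. Each motif was searched on both strands, separately, so that matches of different motifs may overlap. The 7 stretches below are 160 bases each, end before the annotated gene, and run 5′ to 3′ on the gene's strand. They were picked after the matches were seen, as examples that hold one. In the Mcm5 and Mcm6 stretches the capitals mark TTTNNCGC, with overlapping matches on opposite strands printed as 1 run. In the other stretches they mark the CHR element and CCAAT, on either strand. CCAAT on the opposite strand reads ATTGG.
Mcm5, a subunit of the helicase ring, chr8:75109349-75109508, + strand: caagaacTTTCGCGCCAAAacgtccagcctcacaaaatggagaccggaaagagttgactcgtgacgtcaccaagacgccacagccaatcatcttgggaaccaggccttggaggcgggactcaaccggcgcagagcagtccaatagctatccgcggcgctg
Mcm6, a subunit of the same ring, chr1:128359706-128359865, - strand: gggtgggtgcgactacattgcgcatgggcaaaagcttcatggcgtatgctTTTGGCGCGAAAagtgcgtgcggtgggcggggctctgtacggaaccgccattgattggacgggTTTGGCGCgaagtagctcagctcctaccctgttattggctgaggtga
Cdk1, the mitotic kinase, chr10:69352939-69353098, - strand: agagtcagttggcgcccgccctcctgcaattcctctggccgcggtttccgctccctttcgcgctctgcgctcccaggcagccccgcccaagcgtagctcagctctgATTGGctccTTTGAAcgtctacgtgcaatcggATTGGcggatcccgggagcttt
Cdc20, an activator of the anaphase-promoting complex, chr4:118437353-118437512, - strand: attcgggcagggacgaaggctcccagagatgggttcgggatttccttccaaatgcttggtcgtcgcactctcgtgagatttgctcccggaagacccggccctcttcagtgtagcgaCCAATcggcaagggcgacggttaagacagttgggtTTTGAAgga
Top2a, the DNA topoisomerase of dividing cells, chr11:99024190-99024349, - strand: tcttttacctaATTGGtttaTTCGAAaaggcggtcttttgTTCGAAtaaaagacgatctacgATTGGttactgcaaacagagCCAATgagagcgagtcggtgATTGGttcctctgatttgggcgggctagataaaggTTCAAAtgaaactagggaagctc
Mki67, the Ki-67 protein that coats mitotic chromosomes, chr7:135716380-135716539, - strand: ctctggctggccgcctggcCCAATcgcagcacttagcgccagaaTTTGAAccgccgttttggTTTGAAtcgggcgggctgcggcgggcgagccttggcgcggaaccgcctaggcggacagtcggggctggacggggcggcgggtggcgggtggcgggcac
Kif11, a kinesin that pushes spindle poles apart, chr19:37376222-37376381, + strand: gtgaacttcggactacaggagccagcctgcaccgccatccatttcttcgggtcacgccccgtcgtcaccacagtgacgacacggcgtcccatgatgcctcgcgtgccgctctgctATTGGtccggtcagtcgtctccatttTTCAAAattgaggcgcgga

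Across all 37 genes with a window, TTTNNCGC was found in 9 of 15 replication genes and in 1 of 20 mitotic genes, Cdk1, against 10.1% of the 9088 tested genes with a window. TTTGAA or TTCGAA was found in 3 of 15 replication genes and in 16 of 20 mitotic genes, against 15.7%. CCAAT was found in 11 of 15 replication genes and in 18 of 20 mitotic genes, against 43.7%. Over all 27025 promoter genes of the table, the shares were 5.93%, 21.7% and 41.1%. A match is a description of the letters and not a shown binding site. Despite the different letters, the replication and mitotic genes had nearly the same profile over the 6 libraries, as given next.

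The main pattern was a difference between libraries that crossed the control and miR-CKO groups. The 50 genes summed to 1113, 1557 and 1091 RPKM in the controls and to 1001, 1458 and 1628 RPKM in miR-CKO, which is 0.26, 0.373, 0.269, 0.245, 0.343 and 0.391% of all values of each library. Control 2, miR-CKO 2 and miR-CKO 3 were high, and control 1, control 3 and miR-CKO 1 were low, so the control and the miR-CKO group each held high and low libraries. Within the controls the high library was the one titled WT, and both titled Wnt-Cre were low; with 1 WT library, its genotype and the library itself cannot be told apart. For 48 of the 50 genes the 3 highest values came from exactly control 2, miR-CKO 2 and miR-CKO 3, which was so for 15.5% of all tested genes; this order was looked for after the values were seen. The exceptions were Gins2, a GINS subunit, and Ccnd1, cyclin D1. The lowest value of a gene was in miR-CKO 1 for 40 of the 50 genes, against 30.1% of all tested genes, in control 1 for 6 and in control 3 for 4. The highest was in miR-CKO 3 for 30 genes, in control 2 for 19 and in miR-CKO 2 for 1.

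**Figure D1:**
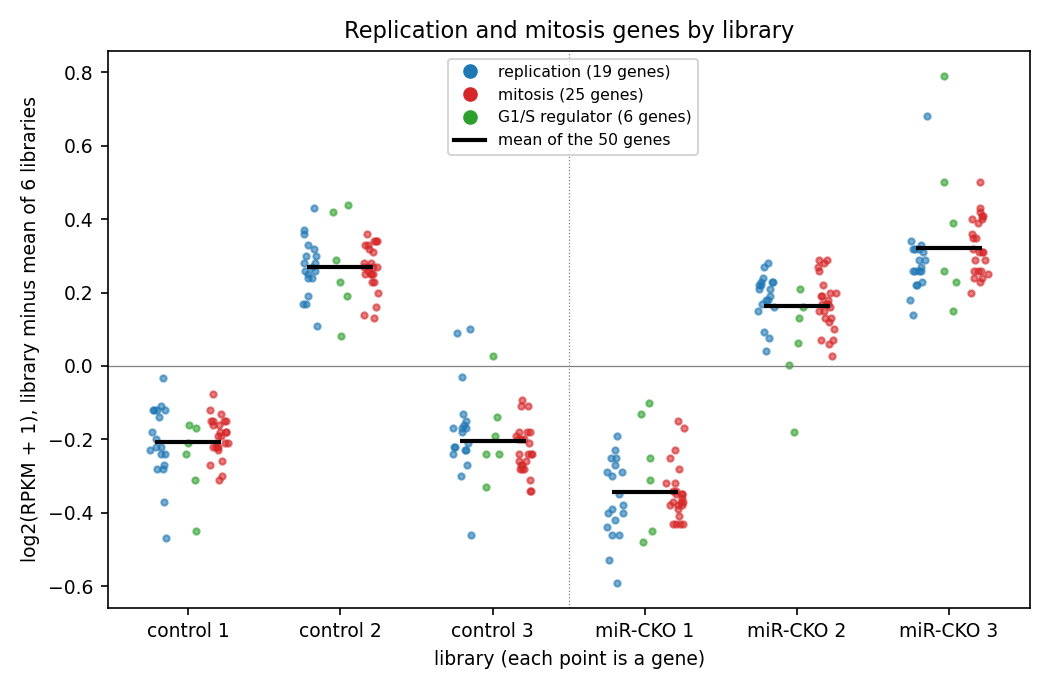
Deviation of each of the 50 genes from its own mean over the 6 libraries, on the log2(RPKM + 1) scale, with 1 point per gene and library, coloured by role, and a bar at the mean of the 50 genes. The bars stand at -0.21, 0.27 and -0.20 in the controls and at -0.34, 0.16 and 0.32 in miR-CKO, and the colours overlap in every library.

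The genes varied together. On the log2(RPKM + 1) scale, used for every log2 value here, the mean deviation of the 50 genes from their own means was -0.21, 0.27 and -0.20 in the controls and -0.34, 0.16 and 0.32 in miR-CKO. The same mean over all tested genes stayed between -0.04 and 0.046. The mean profile of the 50 genes held 88.3% of their summed squared deviations; 22 genes lay within 0.1 of it in all 6 libraries and 44 within 0.2. The 19 replication genes deviated by -0.21, 0.27, -0.18, -0.36, 0.19 and 0.29, and the 25 mitotic genes by -0.19, 0.27, -0.23, -0.34, 0.17 and 0.33, in the same library order. The summed RPKM of the replication genes stayed at 0.74 to 0.78 of that of the mitotic genes in every library, although the sums themselves ranged from 387 to 623 RPKM and from 516 to 840 RPKM.

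Some genes left the shared profile. Ccnd1 departed most, by 0.47 in miR-CKO 3, followed by Rrm2 by 0.36 in miR-CKO 3, Gins2 by 0.31 in control 3, Pold1, the catalytic subunit of polymerase delta, by 0.29 in control 3, E2f1 by 0.24 in miR-CKO 1 and Ccne1 by 0.23 in control 3. The highest library exceeded the lowest by 1.44 to 2.46 times, with a median of 1.67 against 1.31 over all tested genes. Rrm2, with 2.46, and Ccnd1, with 2.45, spanned the widest range, and Pole, with 1.44, the narrowest.

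The comparison of the genotypes asks whether loss of the miR-183 cluster shifts these genes. None of the 50 genes passed the test in either direction (limma on log2 values, Benjamini-Hochberg adjusted p under 0.05 over all tested genes), against 0.061% of all tested genes (0.0534% higher and 0.00762% lower in miR-CKO). At an unadjusted p under 0.05 there were also 0 of 50, against 5.16%, and with voom on the recovered reads 0 of 49 at either threshold. No gene had separate groups, meaning every library of one genotype above every library of the other, against 10.9% of all tested genes (4.63% higher and 6.24% lower in miR-CKO). The adjusted p was 0.9996 for each of the 50 genes, and the smallest unadjusted p was 0.171, for E2f1.

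The estimates leaned upward by small amounts. The log2 change, miR-CKO minus control, was above 0 for 44 of 50 genes, against 40.4% of all tested genes, and below 0 for Cdc6, Tyms, Pold1, Gins2, Ccne1 and Ccnd2. It ranged from -0.16 for Ccne1 to 0.33 for Ccnd1, with a median of 0.10 against -0.02 for all tested genes. Because the genes share their profile over libraries, their signs are not independent. Standard errors were 0.15 to 0.35 with a median of 0.21, above the median of 0.11 for all tested genes in 50 of 50 cases, and the 95% confidence bounds reached from -0.66 to 1.07. A shift of the size of the estimates was not detectable with this spread.

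**Figure D2:**
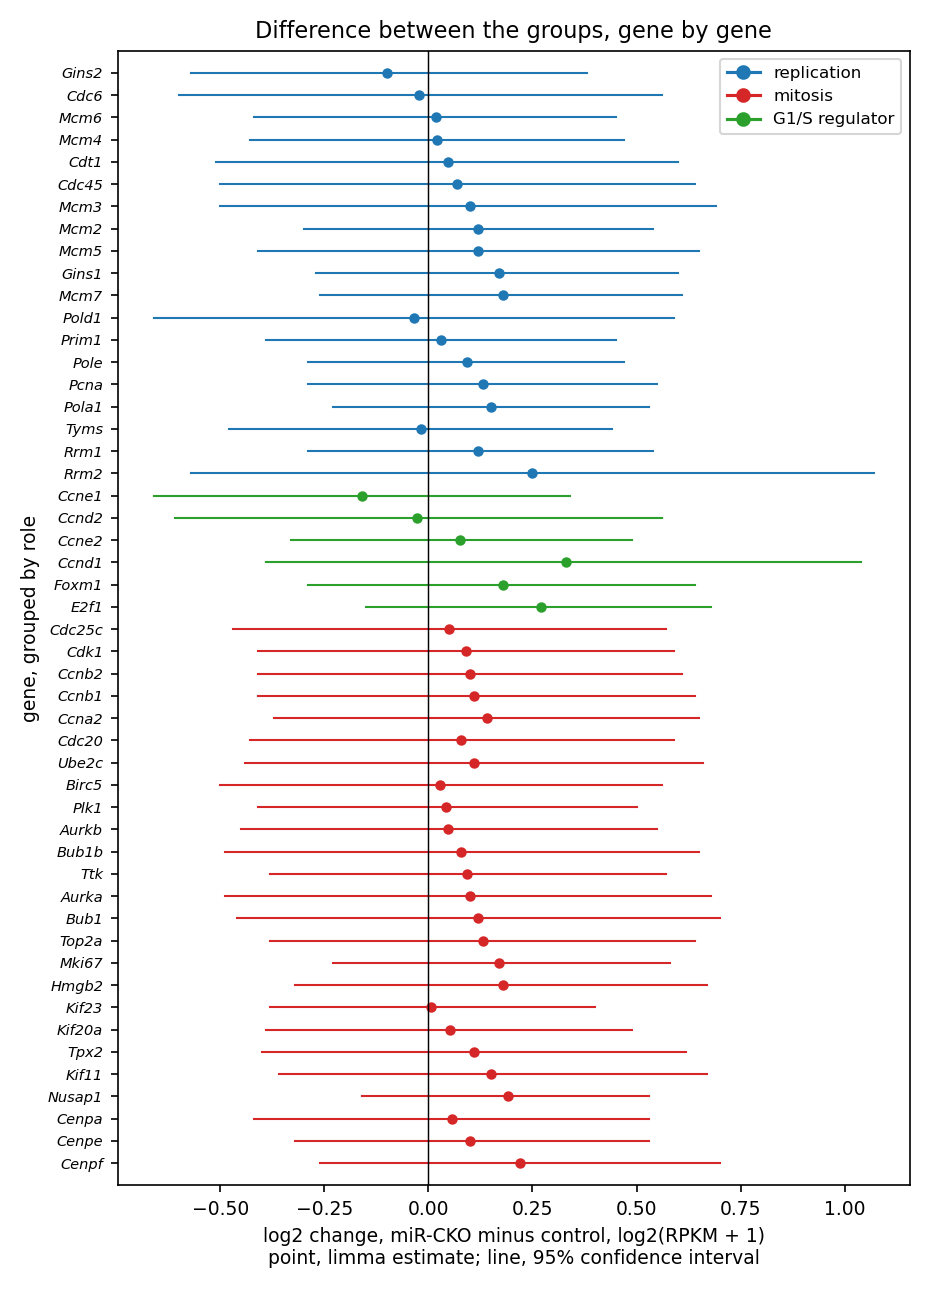
Log2 change (miR-CKO minus control, log2(RPKM + 1)) of each of the 50 genes, grouped by role, with the limma estimate as a point and the 95% confidence interval as a line. All 50 intervals cross 0, with estimates between -0.16 and 0.33.

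Among the licensing and helicase genes, 9 of 11 estimates were above 0 and none passed the test. Mcm2, a ring subunit, stood at 30.2, 42.9 and 30.5 RPKM in the controls and at 29.7, 41.2 and 41.6 RPKM in miR-CKO. Mcm7, another, stood at 39.1, 51.0 and 38.3 RPKM in the controls and at 36.7, 53.0 and 57.0 RPKM in miR-CKO. Both showed the low control 1, control 3 and miR-CKO 1, and the groups overlapped. Their log2 changes were 0.12 ± 0.18 (SE) for Mcm2 and 0.18 ± 0.18 for Mcm7. Gins1, a GINS subunit, measured 8.99, 12.8 and 9.78 RPKM in the controls and 9.03, 13 and 14 RPKM in miR-CKO, with overlap at the low end. The other 8 genes of this role, which include Mcm3, Mcm4 and Mcm5 of the ring, Cdt1, Cdc45 and Gins2, had control means from 4.55 RPKM for Cdc6, the ring loader and the lowest of the 50, to 52.4 RPKM for Mcm6. Gins2 differed from the common order, with control 3 at 13.5 RPKM just above miR-CKO 2 at 13.4.

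The polymerase and clamp genes gave 4 of 5 estimates above 0, with none past the test. Pcna, the sliding clamp, was the most abundant of the 50 genes per length, with a control mean of 79.0 ± 12.1 RPKM (SD, n = 3) and a miR-CKO mean of 87.4 ± 18.6 RPKM. Its libraries read 69.3, 92.6 and 75 RPKM in the controls and 66.6, 93.0 and 103 RPKM in miR-CKO. Thus miR-CKO 1 was the lowest of all 6 and miR-CKO 3 the highest, and the controls lay between. Pola1, the catalytic subunit of polymerase alpha, read 7.70, 9.22 and 7.13 RPKM in the controls and 6.98, 9.73 and 10.6 RPKM in miR-CKO. Pole, that of polymerase epsilon, read 6.89, 9.80 and 7.23 RPKM and 7.02, 8.67 and 9.96 RPKM. Both had overlapping groups. Prim1, the primase subunit that starts new strands, had a control mean of 18.7 ± 3.60 RPKM and a miR-CKO mean of 19.2 ± 3.95 RPKM (SD, n = 3 each), and Pold1 had 6.80 ± 2.35 and 6.52 ± 1.69 RPKM.

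The nucleotide supply genes showed the same libraries high. Rrm1, the large subunit of ribonucleotide reductase, stood at 44.4, 60.5 and 41.7 RPKM in the controls and at 42.7, 56.1 and 60.3 RPKM in miR-CKO. Rrm2, its S phase subunit, ran from 26.8 RPKM in miR-CKO 1 to 65.9 RPKM in miR-CKO 3, with 49.8 RPKM in miR-CKO 2 and 33.8, 52.7 and 29.3 RPKM in the controls. The miR-CKO libraries thus held both its lowest and its highest value, and its log2 change of 0.25 had the widest standard error of the 50 genes, 0.35. Tyms, thymidylate synthase, had control and miR-CKO means of 10.1 ± 1.94 and 10 ± 2.36 RPKM (SD, n = 3 each).

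The G1 cyclins did not all follow the common order, with 2 of 4 estimates above 0. Ccnd1 read 18.3, 31.5 and 20.1 RPKM in the controls and 23.3, 22.4 and 44.9 RPKM in miR-CKO. Its high values were miR-CKO 3 and control 2 alone, and miR-CKO 2, high for most other genes, was near miR-CKO 1. Without miR-CKO 3 its log2 change of 0.33 became 0.01. Ccnd2, cyclin D2, measured 46.0, 69.9 and 43.4 RPKM in the controls and 36.6, 59.6 and 60.4 RPKM in miR-CKO, following the common order. Its log2 change was -0.03, and it was 0.18 without control 2, 0.21 without miR-CKO 1 and 0.0031 with median centring, which shifts all genes alike.

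Cyclin E genes act with Cdk2 at the start of S phase. Ccne1 stood at 9.51, 15.3 and 11.4 RPKM in the controls and at 7.88 and 11.7 RPKM in miR-CKO 1 and 2, with miR-CKO 3 between control 3 and control 2, giving a miR-CKO mean of 10.7 ± 2.47 RPKM (SD, n = 3). Control 2 was its highest library, and it had the lowest log2 change of the 50 genes, -0.16 ± 0.21 (SE). Ccne2 stood at 7.97, 10.5 and 8.14 RPKM in the controls and at 7.13, 10.3 and 11.1 RPKM in miR-CKO, with a log2 change of 0.08 ± 0.17. For both genes the groups overlapped.

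Both transcription factors had estimates above 0. E2f1, an activator of replication genes, read 9.29, 11.9 and 9.29 RPKM in the controls and 10.3, 11.2 and 16.2 RPKM in miR-CKO. Its control 2 lay above miR-CKO 1 and miR-CKO 2, which kept the groups from separating, and its log2 change was 0.27 ± 0.17 (limma SE, adjusted p = 0.9996). Foxm1, an activator of mitotic genes, read 12.2, 18.1 and 13.3 RPKM in the controls and 12.7, 16.8 and 20.3 RPKM in miR-CKO. Unlike most of the 50 genes, these factors had their lowest value in a control rather than in miR-CKO 1.

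**Figure D3:**
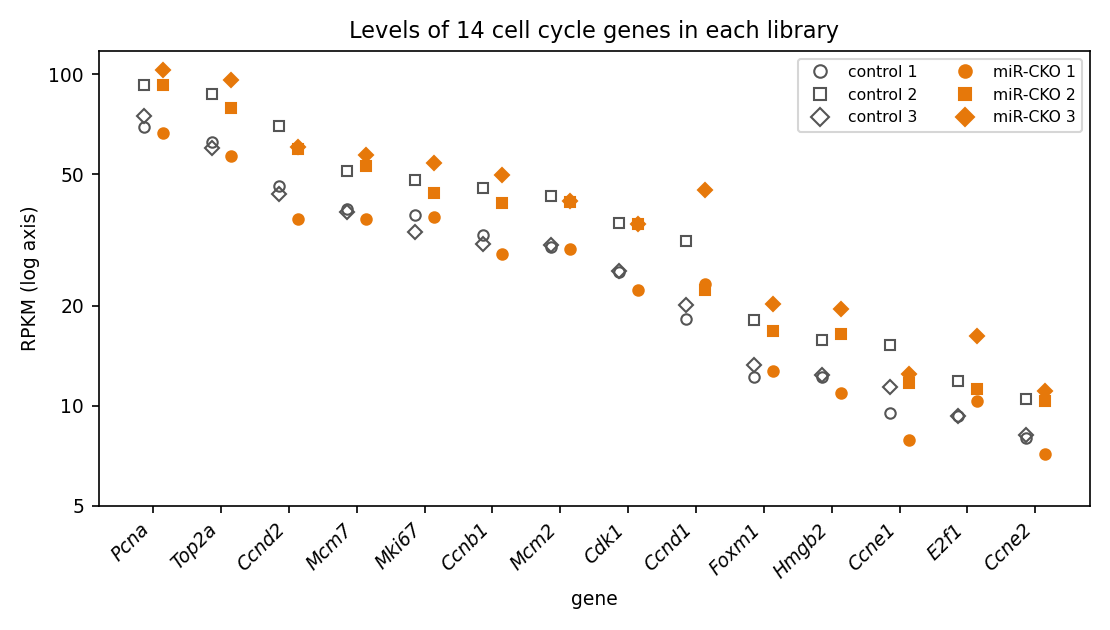
RPKM (log axis) of 14 cell cycle genes in each library, with open symbols for controls, filled symbols for miR-CKO and the shape giving the replicate number. In Pcna the filled symbols run from 66.6 to 103 RPKM and the open ones from 69.3 to 92.6 RPKM, and the groups overlap in all 14 genes.

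All 25 mitotic genes had a log2 change above 0, from 0.0057 for Kif23, a cytokinesis kinesin, to 0.22 for Cenpf, against 40.4% of all tested genes above 0, and none passed the test. Without miR-CKO 3, 4 of the 25 were above 0, Mki67, Nusap1, Cenpf and Hmgb2, and 12 were without miR-CKO 2. Cdk1 read 25.3, 35.7 and 25.5 RPKM in the controls and 22.3, 35.3 and 35.3 RPKM in miR-CKO. Its partner Ccnb1, cyclin B1, read 32.7, 45.3 and 30.7 RPKM and 28.6, 40.8 and 49.5 RPKM. In both, control 2 lay above miR-CKO 2, while miR-CKO 1 was the lowest library. Ccna2, cyclin A2, which acts in S phase and at mitotic entry, read 42.7, 59.7 and 41.4 RPKM in the controls and 39.1, 55.4 and 65.9 RPKM in miR-CKO. Ccnb2, cyclin B2, and Cdc25c, the phosphatase that activates Cdk1, had log2 changes of 0.10 and 0.05. Cdc20 and Ube2c, which work with the anaphase-promoting complex, had control means of 26.9 ± 6.71 and 57.6 ± 12.1 RPKM (SD, n = 3 each) and log2 changes of 0.08 and 0.11. The 7 kinase and checkpoint genes, which are Aurka, Aurkb, Plk1, Bub1, Bub1b, Ttk and Birc5, had log2 changes from 0.03 to 0.12 and the same 3 highest libraries in 7 of 7.

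The 3 genes of chromatin in dividing cells had the same 3 libraries highest. Top2a stood at 62.3, 87.0 and 60.0 RPKM in the controls and at 56.5, 78.9 and 95.9 RPKM in miR-CKO. Mki67 stood at 37.5, 48.1 and 33.5 RPKM in the controls and at 37.0, 43.9 and 53.9 RPKM in miR-CKO. Mki67 had its lowest value in control 3, and its miR-CKO 1 level was close to that of control 1. Hmgb2, a chromatin protein of cycling cells, read 12.2, 15.8 and 12.4 RPKM and 10.9, 16.5 and 19.6 RPKM; it has near-identical copies elsewhere in the genome, so its level is uncertain. The log2 changes were 0.13 ± 0.22 (SE) for Top2a, 0.17 ± 0.17 for Mki67 and 0.18 ± 0.21 for Hmgb2.

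Spindle and centromere genes followed the same libraries. Nusap1, a microtubule-bundling protein, read 20.2, 24.4 and 18.2 RPKM in the controls and 20, 24.2 and 27.9 RPKM in miR-CKO. Kif11 read 18.4, 25.7 and 18.3 RPKM in the controls and 16.7, 24.5 and 29.3 RPKM in miR-CKO. Nusap1 had the smallest standard error of the 50 genes, 0.15, with a log2 change of 0.19, and its groups still overlapped. Cenpf, a kinetochore protein, read 9.56, 12 and 8.23 RPKM and 8.98, 11.2 and 15.5 RPKM, and Cenpe, a kinetochore motor, read 9.89, 13.8 and 9.73 RPKM and 9.48, 12.3 and 14.4 RPKM. In both, miR-CKO 1 lay below control 1, and the groups overlapped. Cenpa, the centromeric histone, and the spindle proteins Tpx2 and Kif20a had control means of 31.3 ± 6.18, 29.1 ± 6.30 and 29.6 ± 5.26 RPKM (SD, n = 3 each), with log2 changes of 0.06, 0.11 and 0.05.

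The estimates depended on which libraries entered the comparison. The median log2 change of the 50 genes was 0.26 without control 2 and 0.30 without miR-CKO 1, with 50 of 50 genes above 0 both times, against 45% and 47.2% of all tested genes. It was 0.017 without control 1 (31 genes above 0, against 37.2%) and 0.016 without control 3 (31, against 44%). It was 0.015 without miR-CKO 2 (26, against 39.6%) and -0.03 without miR-CKO 3 (13, against 36.5%). The library miR-CKO 1 was also the one apart in sex-linked genes, with Xist at 96 RPKM and Eif2s3y at 0 RPKM. A sex difference and other differences of that library cannot be told apart. Leaving out miR-CKO 1 gave separate groups for Mcm7, Pcna, Pola1, Gins1, Ube2c and Hmgb2, 6 of 50, against 10.4% of all tested genes. Mcm7, Pola1 and Hmgb2 then had an unadjusted p under 0.05, 3 of 50 against 6.3%. Leaving out control 2 separated Ccnd1 and E2f1, 2 of 50, against 7.66%. No gene of the 50 passed the adjusted threshold in any of these fits.

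**Figure D4:**
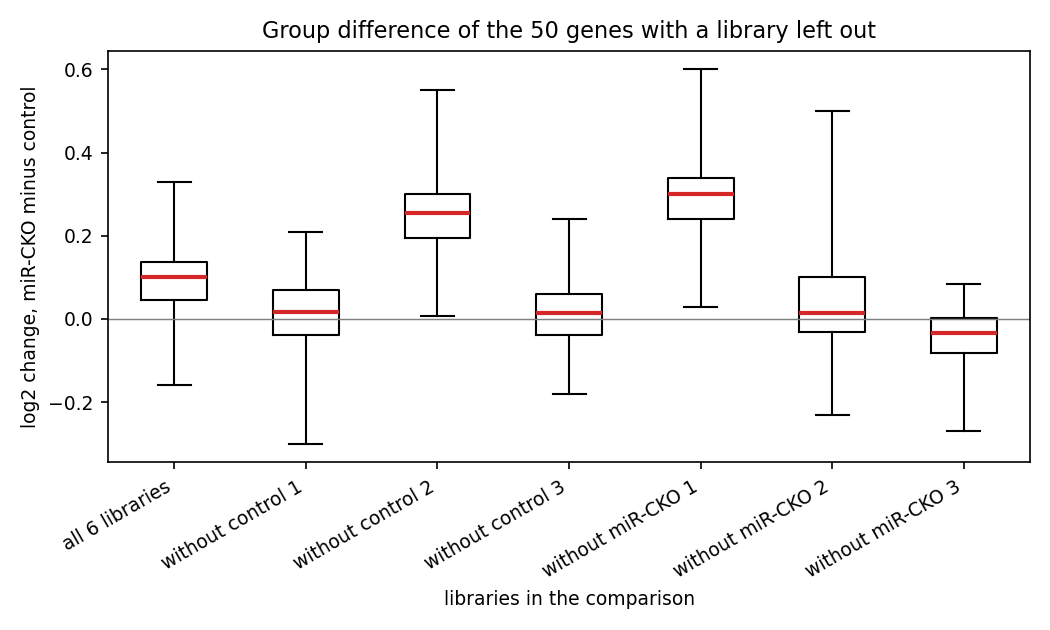
Log2 changes (miR-CKO minus control) of the 50 genes with all 6 libraries and with each library left out, with the box at the quartiles, the red line at the median and the whiskers at the lowest and highest gene. The median is 0.10 with all 6 libraries, 0.30 without miR-CKO 1 and -0.03 without miR-CKO 3.

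Other genes of the same pathways were listed alongside. Of 44 other mitosis genes 0 passed the test; 42 had a log2 change above 0, with a median of 0.10, and 43 had their 3 highest values in control 2, miR-CKO 2 and miR-CKO 3. Of 37 other replication genes 0 passed, 26 were above 0 with a median of 0.03, and 31 had those 3 libraries highest. Of 15 other cell cycle regulators 0 passed and 10 were above 0. Over all tested genes, 40.4% were above 0 and 15.5% had those 3 libraries highest. Because most of the mitosis and replication genes listed here shared the order of the 50 genes, their signs are not independent of theirs. At an unadjusted p under 0.05 each of these lists also had 0. The smallest p values in them were for Chaf1a, a histone chaperone of replication, with a log2 change of -0.22 ± 0.13 (SE), for Cenpm, a centromere protein, with 0.22 ± 0.18, and for Rbl1, the p107 pocket protein, with 0.15 ± 0.15. The levels of Cenpm were 2.46, 4.22 and 3.15 RPKM in the controls and 3.18, 4.64 and 3.96 RPKM in miR-CKO.

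Genes of cell cycle exit followed the profile only in part. They deviated by -0.13, 0.11 and 0.025 in the controls and by -0.081, -0.0096 and 0.091 in miR-CKO. Of 12 such genes 0 passed and 7 were above 0. Those 3 libraries were highest for 2 of the 12, against 15.5% of all tested genes. Ccng2, an unconventional cyclin of arrested cells, read 24.8, 24.7 and 25.5 RPKM in the controls and 27.1, 27.1 and 34.1 RPKM in miR-CKO. Its groups were separate, as for 4.63% of all tested genes in that direction, with a log2 change of 0.22 ± 0.10 (limma SE, adjusted p = 0.9958). Cdkn1c, the p57 inhibitor of cyclin-dependent kinases, ranged from 77.1 to 132 RPKM without separate groups.

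Markers of the cell types in the dissected tissue also differed between libraries. The 12 genes listed as progenitor markers include Hes6, Neurod1 and Neurod4. Whether each of them marks dividing cells was not tested. These 12 genes deviated by -0.17, 0.25 and -0.41 in the controls and by -0.12, 0.10 and 0.35 in miR-CKO. Their sum was 268 to 398 RPKM in controls and 310 to 374 RPKM in miR-CKO. The same 3 libraries were highest for 7 of 12, against 15.5% of all tested genes. Neurod1 and Neurod4 were among those that did not follow this order. Neurod1 had its highest value, 73.1 RPKM, in miR-CKO 1 and its lowest, 55.6 RPKM, in miR-CKO 3. Neurod4 read 37.2 RPKM in control 1, above 34.8 RPKM in miR-CKO 3. The 12 genes of postmitotic sensory neurons deviated by 0.06, -0.20, 0.12, 0.27, 0.02 and -0.28, highest in miR-CKO 1, where most of the 50 genes were lowest. Their sum was 2654 to 3373 RPKM in controls and 2672 to 3879 RPKM in miR-CKO. None of these markers was at 0 in any library. Their part in the result was not tested.

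**Figure D5:**
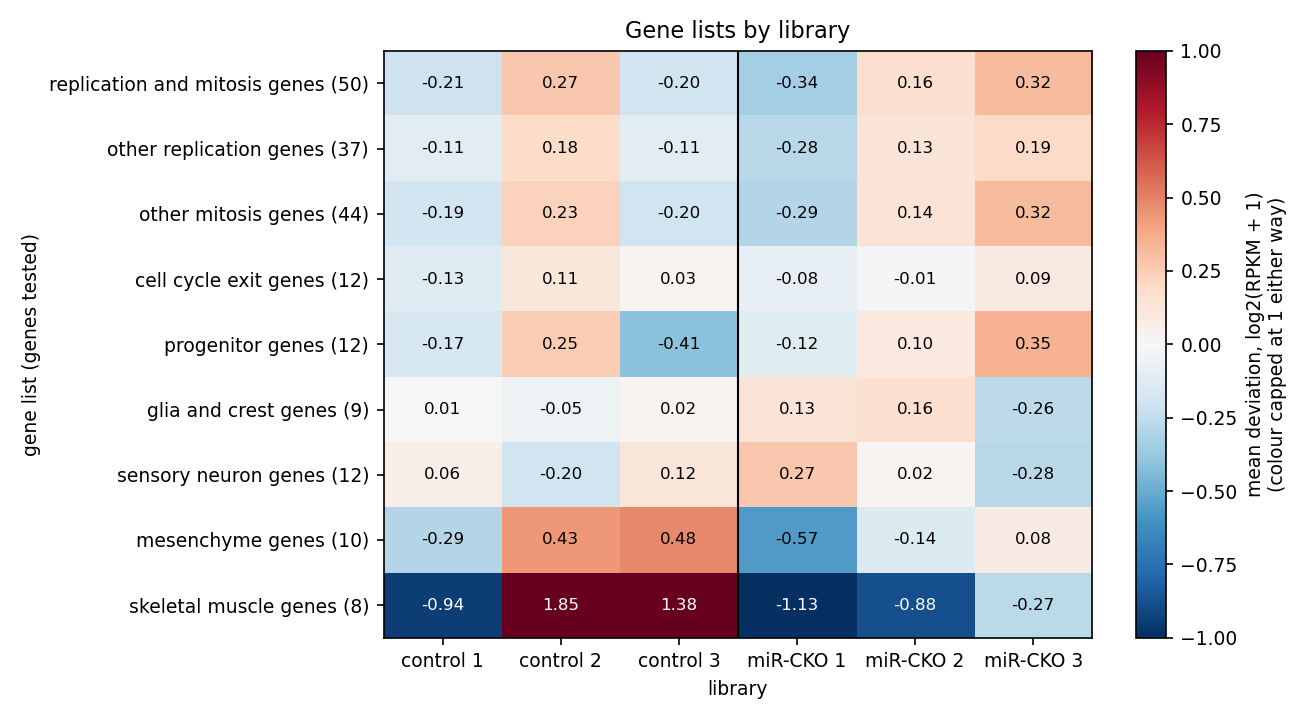
Mean deviation of each gene list (number of genes tested) from its mean over the 6 libraries, on the log2(RPKM + 1) scale, by library. The 50 genes, the other replication and mitosis genes and the progenitor genes are above 0 in control 2, miR-CKO 2 and miR-CKO 3, whereas muscle genes stand at 1.85 in control 2 and 1.38 in control 3.

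Muscle divided the libraries another way, and mesenchyme and cartilage did so in part. The 10 muscle genes summed to 33.8, 200 and 149 RPKM in the controls and to 32.2, 35.8 and 46.0 RPKM in miR-CKO, and none was at 0 throughout. The 10 mesenchyme genes summed to 234, 391 and 429 RPKM in the controls and to 204, 273 and 304 RPKM in miR-CKO. The 6 cartilage genes summed to 19.3, 66.3 and 67.9 RPKM and to 21.0, 29.7 and 56.8 RPKM. Control 3 was thus high in these lists but low in the 50 genes, and miR-CKO 2 and miR-CKO 3 were low in muscle but high in the 50 genes. In mesenchyme and cartilage, control 1 and miR-CKO 1 had the lowest sums, and both were also low in the 50 genes. The part of these tissues in the profile was not tested. With control 2 and control 3 both left out, a fit chosen after seeing these values in which control 1 alone stands for its group and is assumed to vary like the miR-CKO libraries, 0 of 50 genes passed. The median log2 change was then 0.24, with 50 of 50 above 0 against 54.8% of all tested genes. Separate groups were found for 6, Pold1, Pole, Gins1, Ccnd1, E2f1 and Foxm1, against 24%.

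Red cell genes, with 5 of 9 found in the table, summed to 8742, 4414 and 1534 RPKM in the controls and to 2990, 5603 and 5781 RPKM in miR-CKO. Control 1 had the highest sum and low levels of the 50 genes. Glia and crest genes, led by Fabp7, a lipid-binding protein of glial precursors, deviated by 0.0059, -0.05, 0.02, 0.13, 0.16 and -0.26. Of the 7 spinal cord genes, Mnx1, a motor neuron factor, was at 0 in all libraries. The list summed to 7.10, 10.1 and 12.6 RPKM in the controls and to 8.56, 7.06 and 16.0 RPKM in miR-CKO. Pax2 was highest in miR-CKO 3, at 4.66 RPKM against 0.119 to 1.17 RPKM elsewhere, and so was Pax6, at 3.59 RPKM. Foxp1, the largest part of each sum, was highest in control 3, at 9.45 RPKM. Olig2, Nkx6-1 and Lhx3 were also highest in libraries other than miR-CKO 3, at only 0.896, 1.2 and 0.179 RPKM. Like Pax2, they were too low to enter the test. The part of spinal cord tissue in the high values of miR-CKO 3 was not tested. Vessel genes summed to 86.5, 103 and 95.1 RPKM in the controls and to 85.5, 123 and 92.2 RPKM in miR-CKO. The 7 macrophage genes, at low levels, summed to 14.8, 23.1 and 18.7 RPKM in the controls and to 11.3, 21.2 and 20.9 RPKM in miR-CKO. The macrophage sums were highest in control 2, miR-CKO 2 and miR-CKO 3 and lowest in miR-CKO 1, as for the 50 genes, and 2 of the 6 macrophage genes tested had those 3 libraries highest. Their part in the profile of the 50 genes was not tested.

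The deleted microRNAs pair with messenger RNAs through their seeds, bases 2 to 8, which are in capitals in the RefSeq sequences below. The seeds of miR-96 and miR-182 differ in their last base and share a 7mer-A1 site, TGCCAAA, whereas the seed of miR-183 has another.
miR-183-5p, chr6:30169711-30169732, - strand: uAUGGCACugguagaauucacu
miR-96-5p, chr6:30169506-30169528, - strand: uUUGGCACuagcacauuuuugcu
miR-182-5p, chr6:30165962-30165986, - strand: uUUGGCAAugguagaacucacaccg

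For each gene the annotated 3 prime UTR of the transcript with the longest coding sequence was searched (GENCODE M21, mm10). In it, 7mer or 8mer matches were found for 9 of 50 genes, 18%, against 32.8% of 11063 tested genes with such a UTR. UTRs of a gene's other transcripts were not searched. The median UTR length was 565 bases for the 50 genes and 1038 for the tested genes, and UTR length bears on the chance of a match. No match was an 8mer. The genes were Ccnd1, Ccnd2, Ccne2, Cenpf, Kif23, Mcm4, Pole, Ttk and Tyms, and Ccnd2 had the most sites, 1 for miR-183 and 2 shared by miR-96 and miR-182. The 4 sites below, with the match in capitals, belong to the gene with the highest log2 change, to the sole 7mer-m8 sites and to the G1 cyclin with the most sites.
Ccnd1, miR-96 and miR-182, chr7:144930227-144930233, - strand: ccctagcaagcTGCCAAAccaaaacgggca
Cenpf, miR-96, chr1:189641224-189641230, - strand: cttttggttgcGTGCCAAgctgagggtaaa
Tyms, miR-96, chr5:30059010-30059016, - strand: ctaatagaataGTGCCAAtaatagcaagtt
Ccnd2, miR-183, chr6:127125500-127125506, - strand: taagagtgcgaTGCCATAtcaaatcaatgt

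The 9 genes with a match had a median log2 change of 0.08, from -0.03 to 0.33, with 7 above 0. The 41 genes without one had a median of 0.10, from -0.16 to 0.27, with 37 above 0. None in either set passed the test.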

How the data were processed

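RNA from 6 samples was sequenced, and Bowtie and the mm10 build are named in the submitters' processing notes; the sources used here name no counting tool or annotation. The authors deposited values in 1 table, by gene and library, with no unit in the header. These values were read as RPKM, because a gene's values are whole multiples of a step that depends on its length; FPKM cannot be told apart from it. Depth and whole reads were recovered from the steps, within 0.05 read at most, for 94.5% of tested genes; the absolute depth rests on annotated lengths. Replicate libraries differed beyond counting error (chi-square per gene 13.1 to 36), so each was kept as a replicate.

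Values were taken to log2(RPKM + 1), which understates changes of low genes. Genes with 1 RPKM or more in at least 3 libraries entered a group comparison in limma 3.58.1 (R 4.3.3, trend and robust settings, Benjamini-Hochberg adjustment, threshold 0.05), and the fit was tested on simulated data. Lists are described by counts and medians. The 50 genes, the lists and the tests were chosen with earlier results of these data known. Values in every library, except 1 of Ccne1, are given for 14 genes chosen by role and the 10 others with the smallest p; for lists, the 3 smallest p or the highest means were eligible. Promoters, microRNAs and UTRs came from RefSeq GRCm38.p6 and GENCODE M21. In all, 14 alternatives were planned and 2 were added after seeing the data. Tables used Python 3.11.15, NumPy 2.4.6, pandas 2.3.3 and SciPy 1.17.1, and figures matplotlib 3.10.9.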

Additional observations from a re-analysis of the deposited data

How the results depend on the processing

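None of the 50 genes passed the adjusted threshold under any of the 14 planned and 2 added alternatives, and the median log2 change of the 50 genes was 0.10 to 0.13 under each that kept all 6 libraries. Over all genes, 8 passed in the fit described; 7 to 9 passed with pseudocounts of 0.1 or 0.5, with no filter or with a minimum of 10 RPKM, 2 with median centring, and 0 with upper quartile scaling, without trend and robust settings, without control 2 and control 3 together, or with voom on recovered reads. With the replicate number as a block 0 passed. Deviations of same-numbered libraries had correlations of 0.36, 0.33 and -0.22, and those of differently numbered libraries ran from -0.70 to 0.52. With 3 libraries per group, these values cannot show whether the numbers pair the samples. With a library left out, 0 to 2 genes passed, and 0 to 6 of the 50 had separate groups (6 without control 2 and control 3 together). The sign of Ccnd2 turned with median centring (0.0031) and without control 2 and control 3 together (0.14), as did that of Ccne1 in the latter (0.13); the cause was not tested. With single libraries left out, log2 changes ran from -0.15 to 0.21 for Ccnd2, -0.30 to 0.028 for Ccne1, -0.017 to 0.30 for Cdk1, -0.041 to 0.33 for Top2a, -0.035 to 0.25 for Ccne2, -0.061 to 0.32 for Ccnb1, -0.031 to 0.60 for Rrm2, -0.019 to 0.37 for Kif11, -0.022 to 0.35 for Ccna2, -0.022 to 0.25 for Cenpe and -0.013 to 0.23 for Pole. The spread between controls (median coefficient of variation 21%) exceeded the estimated counting error (2.85%), which rests on the estimated depth.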
